A study of Mus musculus with 19 samples.

Results

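The genes described here were 9 genes of the tight junction, Cldn3, Cldn4, Cldn6, Cldn7, Ocln, Cgn, Tjp1, F11r and Marveld2, out of 54352 gene symbols counted in each of 2 tables. They were chosen by name, with earlier results of these data known, and all 9 were present in both tables. The libraries came from TT2, a single line of mouse embryonic stem cells that was grown on inactivated embryonic fibroblasts (feeder cells), and from blastoids, aggregates of such cells that resemble the blastocyst. Flat (2D) cultures were sampled 54 h after seeding, without treatment (control, 2 libraries) or after 6 h in 20 nM pladienolide B (PlaB, 2 libraries), a splicing inhibitor whose target is the SF3B complex. Blastoids grown in microwells were sampled on days 1, 2, 3, 4 and 5, with 3 libraries on each day, and their labels also list 20 nM PlaB for 6 h, so the 15 blastoid libraries share that exposure. No untreated blastoids were analysed here. Polyadenylated RNA was turned into cDNA with Smart-seq2, which amplifies by PCR without molecular identifiers. The labels do not say whether replicates came from separate cultures, so the p-values measure the spread between these libraries, which may be technical.

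Tight junctions seal the space between neighbouring epithelial cells near their apical side. Claudins are membrane proteins with 4 passes through the membrane and form the sealing strands. Occludin (Ocln) and tricellulin (Marveld2), which share the MARVEL domain, join the strands, tricellulin mainly where 3 cells meet. JAM-A (F11r) is an immunoglobulin-type adhesion molecule beside them. ZO-1 (Tjp1) and cingulin (Cgn) sit on the cytoplasmic side and tie the strands to actin. In the blastocyst the first such epithelium is the trophectoderm, whose junctions let fluid collect in the cavity, and Cldn4 and Cldn6 are known there. Cldn6 is also expressed by pluripotent and early epithelial cells.

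The 9 genes differ in structure, and 4 of them lie in neighbouring pairs. In the GRCm38 assembly, Cldn3 (chromosome 5, 134986214 to 134987472, plus strand) and Cldn4 (chromosome 5, 134945119 to 134946934, minus strand) are 39.3 kb apart, and each consists of 1 exon with no intron. Ocln (chromosome 13, 100496507 to 100552718) and Marveld2 (chromosome 13, 100595957 to 100616971), both on the minus strand, are 43.2 kb apart and have 8 and 6 introns in their longest transcripts. Cldn6 lies on chromosome 17 (23679249 to 23682446, plus strand) with 2 introns, and Cldn7 on chromosome 11 (69964779 to 69967885, plus strand) with 3. F11r has 9 introns (chromosome 1, 171437535 to 171464603, plus strand), Cgn 20 (chromosome 3, 94760069 to 94786492, minus strand) and Tjp1 27 (chromosome 7, 65296165 to 65527781, minus strand). The GC content of the longest transcript was 62.7% for Cldn3, 57.0% for Cldn7, 56.8% for Cldn4, 54.7% for Cgn and 54.4% for Cldn6. It was 50.1% for F11r, 49.2% for Marveld2, 46.8% for Tjp1 and 42.0% for Ocln. Cldn3 shares 40 exonic bases with the antisense gene Wbscr25, and since the strand setting of the counting is not given in the sources used here, reads in that overlap are uncertain.

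The promoters of the 2 neighbouring pairs are shown because Cldn4 was higher in PlaB-treated 2D cultures, in which Cldn3 had at most 2 counts in a library, and because Ocln and Marveld2 both rose in blastoids. Each window runs from 250 bases before to 30 bases after the RefSeq start that coincides with the annotated gene start (RefSeq, GRCm38.p6), 5′ to 3′ on the strand of the gene. Capitals mark the E-box CACCTG on either strand (CAGGTG on the other), the hexamer that repressors of the SNAI and ZEB families bind. The windows are chr5:134985964-134986243 (plus strand) for Cldn3, chr5:134946905-134947184 (minus) for Cldn4, chr13:100552689-100552968 (minus) for Ocln and chr13:100616942-100617221 (minus) for Marveld2.
Cldn3: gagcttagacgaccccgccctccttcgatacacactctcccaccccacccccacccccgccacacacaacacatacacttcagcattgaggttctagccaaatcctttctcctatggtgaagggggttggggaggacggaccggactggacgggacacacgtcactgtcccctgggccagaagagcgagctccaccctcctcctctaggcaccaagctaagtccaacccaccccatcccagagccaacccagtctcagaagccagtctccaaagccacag
Cldn4: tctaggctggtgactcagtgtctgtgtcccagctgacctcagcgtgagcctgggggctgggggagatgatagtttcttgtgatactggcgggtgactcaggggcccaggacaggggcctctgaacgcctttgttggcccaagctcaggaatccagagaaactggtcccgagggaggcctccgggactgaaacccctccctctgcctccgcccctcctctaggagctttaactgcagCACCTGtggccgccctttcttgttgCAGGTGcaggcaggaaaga
Ocln: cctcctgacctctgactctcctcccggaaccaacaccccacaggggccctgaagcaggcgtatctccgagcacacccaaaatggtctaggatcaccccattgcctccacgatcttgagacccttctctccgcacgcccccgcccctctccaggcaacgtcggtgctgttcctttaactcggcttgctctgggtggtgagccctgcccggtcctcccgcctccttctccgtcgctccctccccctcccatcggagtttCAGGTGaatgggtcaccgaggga
Marveld2: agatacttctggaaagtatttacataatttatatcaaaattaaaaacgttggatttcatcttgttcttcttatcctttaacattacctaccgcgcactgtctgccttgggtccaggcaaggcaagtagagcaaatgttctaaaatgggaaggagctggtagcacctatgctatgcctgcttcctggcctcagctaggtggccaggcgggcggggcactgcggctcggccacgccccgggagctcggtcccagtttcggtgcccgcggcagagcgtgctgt
The Cldn4 window held 2 E-boxes within a short stretch around its start and the Cldn3 window held none. The Ocln window held 1, and the window of its second start held 2, of which 1 is the site shown. Marveld2 had none in the window shown and 1 in that of its second start. RefSeq gave 12 promoters for the 9 genes, 3 of which had 2 starts, and an E-box was found in 7 of the 12 (of Cldn4, Cldn6, Cldn7, Ocln, F11r and Marveld2), against 19.1% of all 32851 promoters. The GC box GGGCGG, bound by SP and KLF factors, was found in 11 of the 12, at least 1 for each gene (34.7% of all promoters). The TFAP2 motif GCCNNNGGC was found in 4, of Ocln, F11r and Marveld2 (15.4%), and the grainyhead motif AACCGGTT for none (0.131%). Both strands were searched, motifs could overlap, and the GC content of the members' windows ran from 51.4% to 70.4% against a median of 52.5% over all promoters. The 2 windows of Ocln overlap, as do the 2 of Marveld2, so single sites can be counted in both. The RefSeq start of Tjp1 lies 156537 bases from its annotated gene start.

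The 2D libraries held between 2515381 and 4118725 counts and the blastoid libraries between 3684787 and 7607021, and all 17 replicate pairs differed by more than counting error (chi-square per degree of freedom 3.84 to 75.7). Levels are given as CPM, the count scaled to the library's size, on 1 scale (TMM) over the 19 libraries. The groups differed in several library properties. The level of GC-rich relative to GC-poor genes, as a log2 difference from the mean over all libraries, was -0.93 and -0.78 in control and 0.20 and 0.08 after PlaB. In blastoids the range was 0.45 to 1.05 for day 1, 0.09 to 0.19 for day 2, -1.02 to -0.39 for day 3, 0.33 to 0.54 for day 4 and -0.58 to 0.17 for day 5. In 1 library of day 3 (replicate 3), 13.5% of the counts were mitochondrial, against 2.60% to 9.38% in all others. The summed level of 20 fibroblast markers was 2617 and 3380 CPM in control, 5841 and 7592 CPM after PlaB, 427 to 797 CPM on day 1 and 40.0 to 54.8 CPM on day 5. Of these markers all 20 were detected in both 2D groups and only Tagln was at 0 on every blastoid day. Dcn was the largest part of the day 1 sum (group mean 308 CPM, against 235 CPM in control). In control Tnc (652 CPM) and Acta2 (532 CPM) were the largest, and they stood at 59.0 and 2.6 CPM on day 1. All 12 pluripotency markers were detected in every group, and their sum (4699 to 23279 CPM) was mostly Dppa5a, whose group means ran from 4364 to 20500 CPM. The others were far lower. Between days 1 and 5, 6 of the 12 were lower and 2 higher by edgeR, beside 25.5% each way of all genes. Nanog stood at 312 and 38.2 CPM on these days. Pou5f1, the gene of Oct4, averaged 0.525 CPM in control and 1.81 CPM on day 5. Whether such low values reflect its RNA or the counting of its reads was not tested. Neither absence nor a rise of Pou5f1 is therefore read from them. The sum of 7 endothelial markers stayed between 16.0 and 43.2 CPM. In bulk libraries of this kind, fewer cells of a type and less RNA per cell cannot be told apart.

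Per length of exon, the junction genes stood in a different order in each culture. In control cells Tjp1 (7.94 CPM per kb), F11r (7.29) and Cldn6 (6.68) were highest, Cldn7 followed at 1.53, and Cldn4 (0.355) and Cldn3 (0.101) were lowest. After PlaB, Cldn6 led with 29.0 CPM per kb, and Cldn4 (5.39) and Cldn7 (4.45) stood above Tjp1 (3.56). On day 3 of blastoid culture F11r (11.5), Tjp1 (10.8) and Cldn6 (9.41) were again the highest and Cldn4 (0.627) and Cldn3 (0.273) the lowest. On day 4 Cldn6 (36.3) and Cldn7 (35.1) led, with Cldn3 at 16.6 CPM per kb. On day 5 the order was F11r (40.1), Cldn6 (34.0), Cldn7 (28.9), Tjp1 (14.5), Marveld2 (11.9), Ocln (10.5), Cgn (8.79), Cldn3 (6.35) and Cldn4 (3.60). Cldn6, Cldn7 and F11r thus took the first 3 places per length on days 1, 2, 4 and 5, and Ocln, Cgn and Marveld2 stood at or below 2.72 CPM per kb up to day 3.

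**Figure D1:**
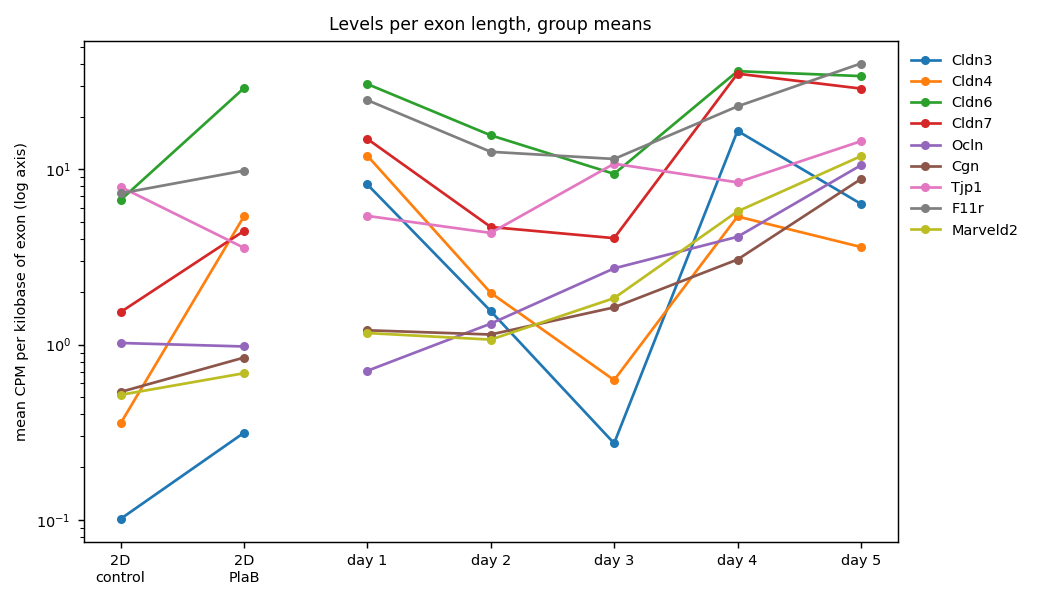
Mean level of each gene per kilobase of exon (CPM per kb, log axis) in the 7 groups, with 2D groups and blastoid days joined separately. Among blastoids the claudin means are lowest on day 3, where Cldn3 is at 0.273, and high on day 4. Between days 2 and 3 Cldn6 and Cldn7 were not called by edgeR. Ocln, Cgn and Marveld2 are highest on day 5.

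The claudins had their lowest means in control cells, were low on days 2 and 3, and were higher on days 1, 4 and 5. Cldn3, a sealing claudin of many epithelia, was almost absent from 2D cultures, with 1 and 0 counts in the control and 0 and 2 counts in the PlaB libraries. Its level was 9.63, 14.8 and 6.52 CPM on day 1, 0.995, 2.50 and 2.37 CPM on day 2, and 0.660, 0.150 and 0.222 CPM on day 3, where the libraries held 4, 1 and 1 counts. It was 15.2, 20.4 and 26.9 CPM on day 4 and 6.02, 6.79 and 11.2 CPM on day 5. Day 4 lay above every other group without overlap, and days 1 and 5 overlapped each other.

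Cldn4, which like Cldn3 serves as a receptor of Clostridium perfringens enterotoxin, stood at 1.02 and 0.270 CPM in control (4 and 1 counts) and at 11.7 and 7.90 CPM after PlaB (27 and 20 counts). In blastoids it was 24.7, 31.3 and 9.16 CPM on day 1, 3.15, 3.74 and 3.85 CPM on day 2 and 1.32, 1.65 and 0.444 CPM on day 3. The values on day 4 were 9.41, 7.92 and 12.0 CPM, and those on day 5 were 3.53, 7.58 and 8.53 CPM. Unlike the other claudins it was highest on day 1 on average, although replicate 3 of that day overlapped day 4.

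Cldn6 was 8.41 and 14.6 CPM in control and 36.7 and 63.2 CPM after PlaB. It was 56.2, 74.5 and 27.5 CPM on day 1, 18.4, 29.5 and 32.7 CPM on day 2, and 21.8, 17.3 and 9.55 CPM on day 3. On day 4 it was 51.6, 58.0 and 77.9 CPM and on day 5 it was 61.0, 48.9 and 65.7 CPM. Days 1, 4 and 5 and the PlaB libraries overlapped one another.

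Cldn7, which is found on lateral membranes as well as in junctions, was 4.08 and 1.89 CPM in control and 8.64 and 8.69 CPM after PlaB. Its blastoid levels were 29.8, 42.1 and 15.3 CPM on day 1, 5.47, 10.95 and 10.96 CPM on day 2 and 7.26, 7.06 and 9.32 CPM on day 3. They were 68.4, 65.2 and 71.6 CPM on day 4 and 38.8, 55.7 and 74.3 CPM on day 5. Day 4 was the most uniform of the high days, and every library of days 4 and 5 apart from replicate 1 of day 5 lay above all libraries of day 1.

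Ocln and Marveld2 did not share the trough on days 2 and 3. Ocln was 4.84 and 3.78 CPM in control, 3.89 and 4.35 CPM after PlaB, and 3.17, 1.65 and 4.16 CPM on day 1. It was 6.80, 5.13 and 4.74 CPM on day 2, 7.59, 10.7 and 16.2 CPM on day 3, 16.2, 18.3 and 17.7 CPM on day 4 and 54.8, 38.4 and 40.4 CPM on day 5. Each blastoid day lay above the day before it without overlap, by the narrowest margin between days 3 and 4. Marveld2 was 0.255 and 3.24 CPM in control (1 and 12 counts), 3.46 and 1.19 CPM after PlaB, and 4.69, 5.17 and 1.94 CPM on day 1. It was 1.49, 4.30 and 5.04 CPM on day 2, 5.61, 2.40 and 10.7 CPM on day 3, 19.7, 23.0 and 15.7 CPM on day 4 and 50.9, 35.5 and 34.1 CPM on day 5. Here the first 3 days and the 2D groups overlapped, and days 4 and 5 each stood clear of the days before.

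Of the cytoplasmic plaque genes, Cgn ranged from 1.62 to 13.5 CPM over the 2D libraries and days 1 to 3. It was 17.0, 18.8 and 19.4 CPM on day 4 and 51.7, 47.3 and 59.9 CPM on day 5, 2 steps without overlap. Tjp1 was 74.4 and 49.7 CPM in control and 32.0 and 23.7 CPM after PlaB. In blastoids it was 38.5, 39.3 and 49.2 CPM on day 1, 39.5, 32.3 and 29.8 CPM on day 2, 59.6, 75.1 and 117 CPM on day 3, 72.7, 70.3 and 54.3 CPM on day 4 and 171, 79.4 and 87.9 CPM on day 5. Days 3, 4 and 5 lay above days 1 and 2, while days 3 and 5 overlapped and the day 5 mean was drawn up by replicate 1. F11r was 19.1 and 19.7 CPM in control, 29.8 and 22.5 CPM after PlaB, 52.4 to 83.7 CPM on day 1, 22.4 to 42.6 CPM over days 2 and 3, 59.0 to 62.9 CPM on day 4 and 94.7 to 131 CPM on day 5. It thus had both the claudins' dip on days 2 and 3 and the highest level on day 5.

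**Figure D2:**
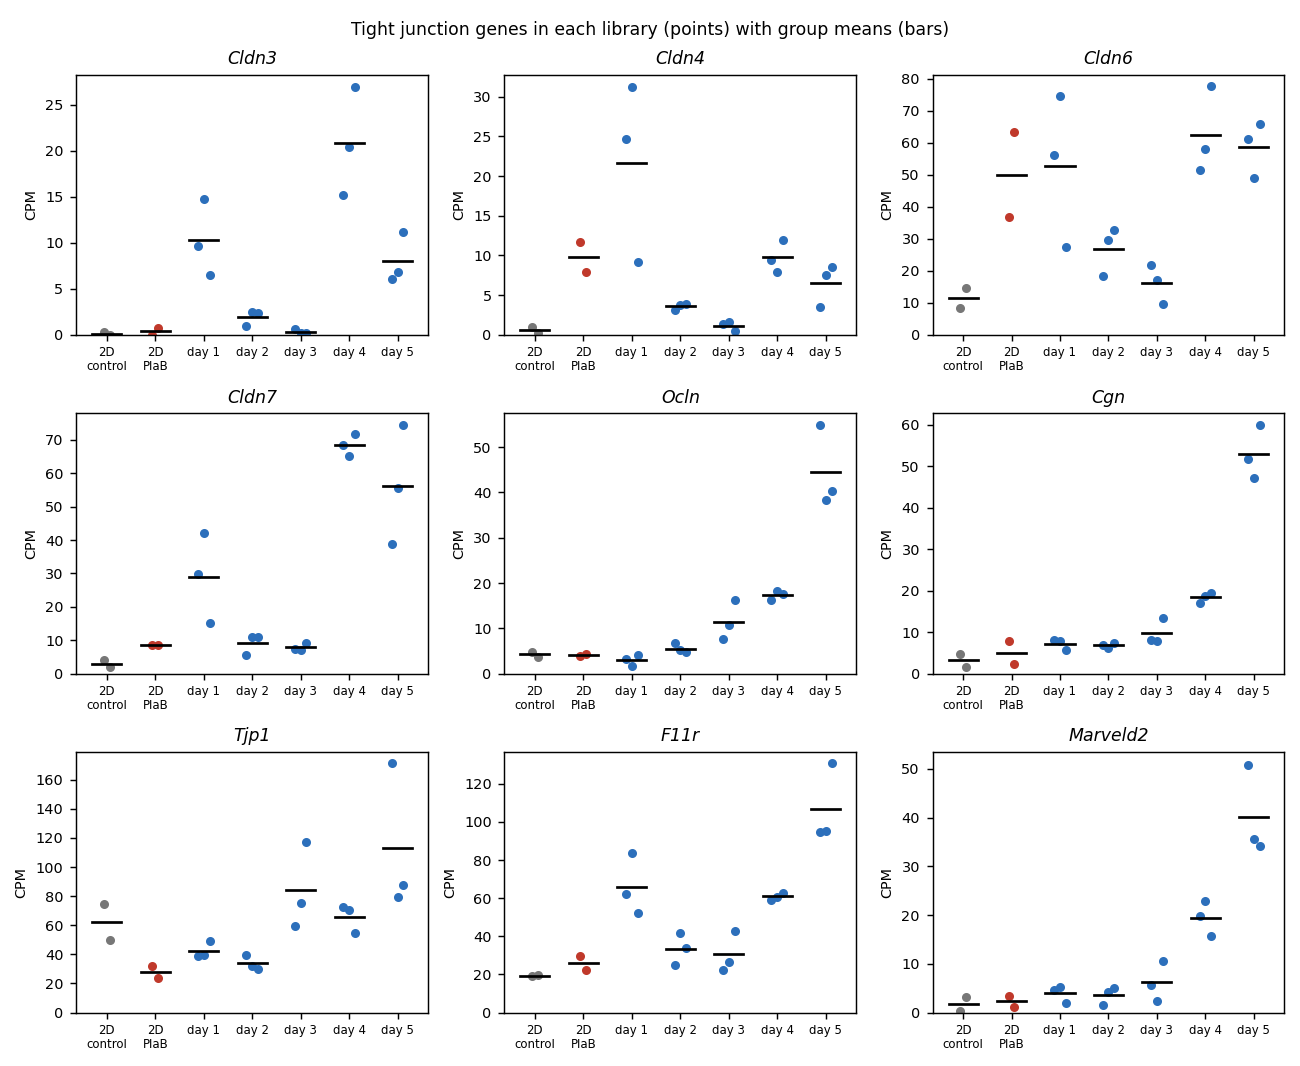
Level of each gene in CPM in the 19 libraries (points) with the mean of each group (bars), on linear axes from 0, with grey for control, red for PlaB and blue for blastoids. Cldn3 and Cldn7 have their highest means on day 4 (20.9 and 68.4 CPM), Cldn4 on day 1 (21.7 CPM), and Ocln, Cgn, F11r and Marveld2 on day 5.

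The first comparison asked which junction genes differed after 6 h of PlaB in 2D culture. Cldn4, Cldn6 and Cldn7 were higher, Tjp1 was lower, and Ocln, Cgn, F11r and Marveld2 did not pass the test. Cldn3 was too low to test. Of the 8 tested genes 3 were thus higher and 1 lower at an adjusted p under 0.05 in edgeR's quasi-likelihood test, beside 25.9% higher and 25.8% lower of the 11183 genes tested. The median log2 fold change was 0.52 over the 8 genes and 0.00 over all genes.

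Cldn4 had the largest difference, 3.82 ± 0.71 on the log2 scale (± SE; edgeR adjusted p = 2.88e-05), or a ratio of 14.8 from 47 against 5 counts (95% counting interval 5.91 to 47.7). Cldn6 rose by 2.12 ± 0.29 (adjusted p = 2.37e-07) and Tjp1 fell by 1.17 ± 0.23 (adjusted p = 7.67e-05). In each of these 3 genes the 2 PlaB libraries lay on 1 side of both control libraries. Cldn7 had 1.51 ± 0.54 on this scale (adjusted p = 0.0195, edgeR), which was no longer called by DESeq2 (0.0919), in the absence of control replicate 2 (0.234) or once the GC trend was removed (0.38, adjusted p = 0.597). F11r stood at 0.43 ± 0.27 (adjusted p = 0.195), Ocln at -0.07 ± 0.59 (0.931), Cgn at 0.61 ± 0.65 (0.446) and Marveld2 at 0.41 ± 0.87 (0.722), and the last 3 rest on 6 to 19 counts per library for Ocln and Cgn and on 1 to 12 for Marveld2. By introns, Cldn4 with none, Cldn6 with 2 and Cldn7 with 3 were higher, the last not in every setting, and Tjp1 with 27 was lower. Marveld2 with 6, Ocln with 8, F11r with 9 and Cgn with 20 were not called, and Cldn3 with none was too low to test. Whether introns had a part in these differences was not tested.

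The libraries compared differed in more than the treatment. GC-rich genes were higher after PlaB, and with the GC trend of each library removed the log2 fold changes were 2.72 for Cldn4 (adjusted p = 0.00197), 1.33 for Cldn6 (0.000117) and -1.09 for Tjp1 (6.06e-05), so these 3 calls held. Fibroblast markers were also higher, 17 of 19 tested and none lower, beside 25.9% higher and 25.8% lower of all genes. Of the trophectoderm markers Krt8 (2.06 ± 0.24) and Krt18 (1.37 ± 0.22) were higher and Hand1 and Tead4 lower, with Cdx2 at 0 in all 4 libraries. The part of these in the junction genes was not tested.

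The steps between neighbouring blastoid days followed the time course. From day 1 to day 2, 4 of 9 genes were lower and none was higher by edgeR (adjusted p under 0.05), beside 5.27% lower and 1.69% higher of 15121 genes tested. Cldn4 fell by 2.56 ± 0.42 on the log2 scale (adjusted p = 0.00076), Cldn3 by 2.33 ± 0.42 (0.00159), Cldn7 by 1.63 ± 0.33 (0.00458) and F11r by 0.95 ± 0.26 (0.0282). Their libraries did not overlap between the days. Cldn6 stood at -0.94 ± 0.32 (adjusted p = 0.0802, edgeR), which passed with DESeq2 (0.0435), by total-count scaling (0.0254), without a filter (0.0123) and without replicate 3 of day 1 (0.011). Ocln, at 0.85 ± 0.34 (adjusted p = 0.132), was the 1 gene higher at an unadjusted p under 0.05, and DESeq2 called none higher. With the GC trend removed, Cldn4 (-1.85, adjusted p = 0.00483) and F11r (-0.89, 0.0484) kept their calls, while Cldn3 (-1.10, 0.113) and Cldn7 (-0.92, 0.0742) did not. The F11r call also ended in 4 of the 6 fits that left out 1 library (without replicates 1 or 2 of day 1, or 1 or 3 of day 2), with adjusted p up to 0.165.

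From day 2 to day 3 calls went both ways. Cldn3 (-2.42 ± 0.64, adjusted p = 0.0095) and Cldn4 (-1.55 ± 0.52, 0.0331) were lower again, and Tjp1 (1.34 ± 0.29, 0.0029) and Ocln (1.06 ± 0.31, 0.0168) were higher, 2 genes each way of 9 by edgeR beside 13.5% lower and 12.0% higher of all genes. Only the Tjp1 call held in every alternative. Cldn3 missed the threshold narrowly without replicate 2 of day 3 (adjusted p = 0.0509), and Cldn4 and Ocln missed it without replicate 2 or 3 of day 2, without replicate 3 of day 3, and after GC correction (adjusted p = 0.113 and 0.074). Ocln missed it also in the fit of these 2 days alone (0.0585). Day 3 replicate 3, the library with the high mitochondrial share, had the highest Ocln and Tjp1 levels of its day, and without it the log2 fold change of Ocln was 0.73 (adjusted p = 0.0973).

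The step from day 3 to day 4 was the one at which most members were higher. By edgeR 7 of 9 genes were higher and none lower (adjusted p under 0.05), beside 15.6% higher and 12.3% lower of all genes tested, and the median log2 fold change was 1.67 over the members and -0.04 over all genes. None of the 9 was lower at an unadjusted p under 0.05, and DESeq2 called none lower. Cldn3 rose by 5.81 ± 0.54 (adjusted p = 3.95e-07), a ratio of 59.3 from 459 against 6 counts (95% counting interval 27.0 to 162). Cldn7 rose by 3.11 ± 0.35 (3.39e-06), Cldn4 by 3.00 ± 0.49 (0.000201), Cldn6 by 1.92 ± 0.33 (0.000347), Marveld2 by 1.67 ± 0.43 (0.00718), F11r by 0.99 ± 0.26 (0.00845) and Cgn by 0.91 ± 0.25 (0.0104). The libraries of the 2 days did not overlap in any of these 7 genes. Ocln stood at 0.60 ± 0.29 (adjusted p = 0.127) and Tjp1 at -0.37 ± 0.28 (0.336). After GC correction 6 of these 7 calls remained, with Cldn3 at 4.78, while Cgn fell short (0.23, adjusted p = 0.549) and Ocln passed (1.04, 0.00495). The Cgn call ended also in the fit of these 2 days alone (adjusted p = 0.0564) and without replicate 2 of day 3 (0.059).

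Trophectoderm markers moved at the same step. Their summed level was 324 to 506 CPM on day 1, 96.5 to 178 CPM on day 2, 56.9 to 77.3 CPM on day 3, 971 to 1059 CPM on day 4 and 1132 to 2196 CPM on day 5. Of 10 tested markers 7 were higher on day 4 than on day 3 and none lower, beside 15.6% higher and 12.3% lower of all genes. The summed level of the 4 claudins was 58.4 to 163 CPM on day 1, 28.0 to 49.9 CPM on day 2, 19.5 to 31.0 CPM on day 3, 145 to 188 CPM on day 4 and 109 to 160 CPM on day 5. Cdx2, a defining gene of the trophectoderm, was low throughout, with counts of 16 (day 1), 0 (day 2), 5 (day 3), 21 (day 4) and 1 (day 5), so the sum rests on the other markers, mostly on the keratin genes Krt18 (568 CPM on day 4 and 877 CPM on day 5) and Krt8 (236 and 338 CPM). Eomes (-0.65 ± 0.37, adjusted p = 0.196, edgeR), Tead4 (-0.04 ± 0.38, 0.943) and Gata3 (0.44 ± 0.32, 0.307) were not called between days 3 and 4. Fibroblast markers went the other way between days 3 and 4, with 13 of 19 lower and none higher, beside the same shares of all genes. The part of either in the junction genes was not tested.

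**Figure D3:**
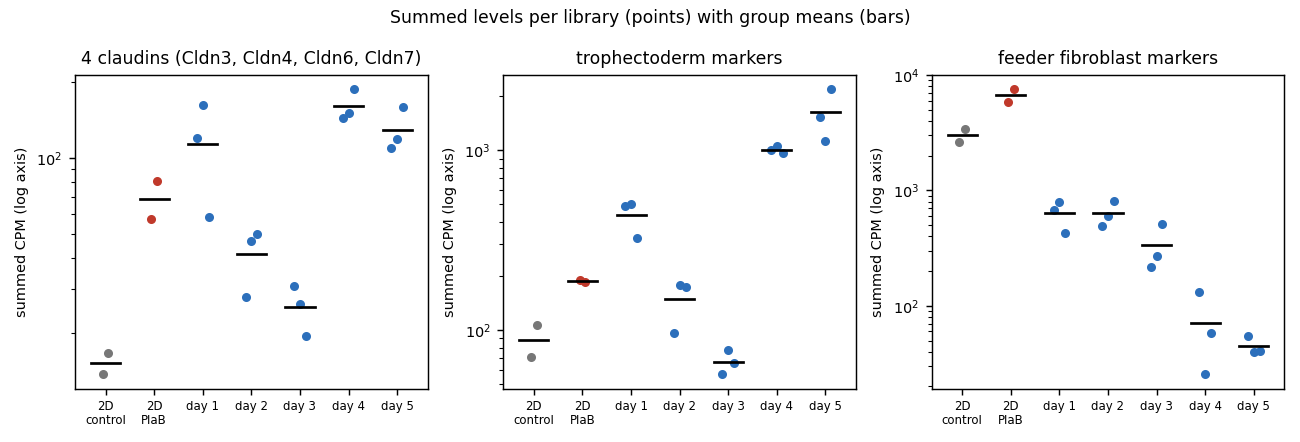
Summed CPM (log axes) of the 4 claudins, of 12 trophectoderm markers and of 20 fibroblast markers in each library (points) with group means (bars). The claudin and trophectoderm sums are lowest among blastoids on day 3 (19.5 to 31.0 and 56.9 to 77.3 CPM) and high on day 4, and the fibroblast sum is lowest on days 4 and 5.

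From day 4 to day 5 the claudins did not go on rising. By edgeR 5 of 9 genes were higher (14.1% of all genes) and 1 was lower (14.5%). Cgn rose by 1.56 ± 0.24 (adjusted p = 0.000104) and Ocln by 1.39 ± 0.28 (0.00112), and both calls held in every alternative. Marveld2 (1.08 ± 0.39, adjusted p = 0.0439), F11r (0.84 ± 0.25, 0.0171) and Tjp1 (0.81 ± 0.28, 0.0351) were higher too, but by total-count scaling none of the 3 passed (adjusted p = 0.121, 0.0898 and 0.135). They also failed without any 1 library of day 4, and without replicate 1 or 2 (Marveld2), replicate 3 (F11r) or replicate 1 (Tjp1) of day 5, with adjusted p up to 0.177, 0.0702 and 0.338. F11r (0.0712) and Tjp1 (0.101) failed without a filter on low counts as well. Without replicate 1 of day 5 the log2 fold change of Tjp1 was 0.38. Cldn3 fell by 1.34 ± 0.37 (adjusted p = 0.00983), which was no longer called after GC correction (-0.67, 0.134), without replicate 3 of day 4 (0.0602) and without replicate 1 of day 5 (0.0571). Cldn4 (-0.54 ± 0.41, adjusted p = 0.339), Cldn6 (-0.06 ± 0.31, 0.903) and Cldn7 (-0.25 ± 0.31, 0.576) did not pass.

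Across the whole culture, from day 1 to day 5, 6 of 9 genes were higher and 1 was lower by edgeR, beside 25.5% higher and 25.5% lower of all 15121 genes. The median log2 fold change was 1.03 over the members and -0.02 over all genes. The largest rises were those of Ocln (3.90 ± 0.33, adjusted p = 3.63e-08), Marveld2 (3.44 ± 0.45, 4.23e-06) and Cgn (2.93 ± 0.26, 5.13e-08). Tjp1 rose by 1.48 ± 0.29 (adjusted p = 0.000264), and these 4 calls held in every alternative. Cldn7 (1.03 ± 0.31, adjusted p = 0.0097) and F11r (0.76 ± 0.25, 0.0171) were higher as well, but both calls ended by total-count scaling (adjusted p = 0.0871 and 0.206) and without replicate 3 of day 1 or replicate 3 of day 5. That of F11r ended also without replicate 1 of day 1 (adjusted p = 0.0831) and without a filter (0.109). For Cldn7 the log2 fold change without replicate 3 of day 1 was 0.66.

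Cldn4, Cldn3 and Cldn6 were not called higher over this span. Cldn4 fell by 1.65 ± 0.41 (adjusted p = 0.00213, edgeR). Cldn3 stood at -0.28 ± 0.38 (adjusted p = 0.561) and Cldn6 at 0.22 ± 0.32 (0.583). These values moved with the GC correction. After it Cldn4 was at -0.72 (adjusted p = 0.0825), Cldn3 at 1.08 (0.013) and Cldn6 at 0.93 (0.00756), and 8 of the 9 genes were called higher. Ocln, Marveld2, Cgn and Tjp1 had 3.52, 3.52, 3.63 and 1.35 after it.

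**Figure D4:**
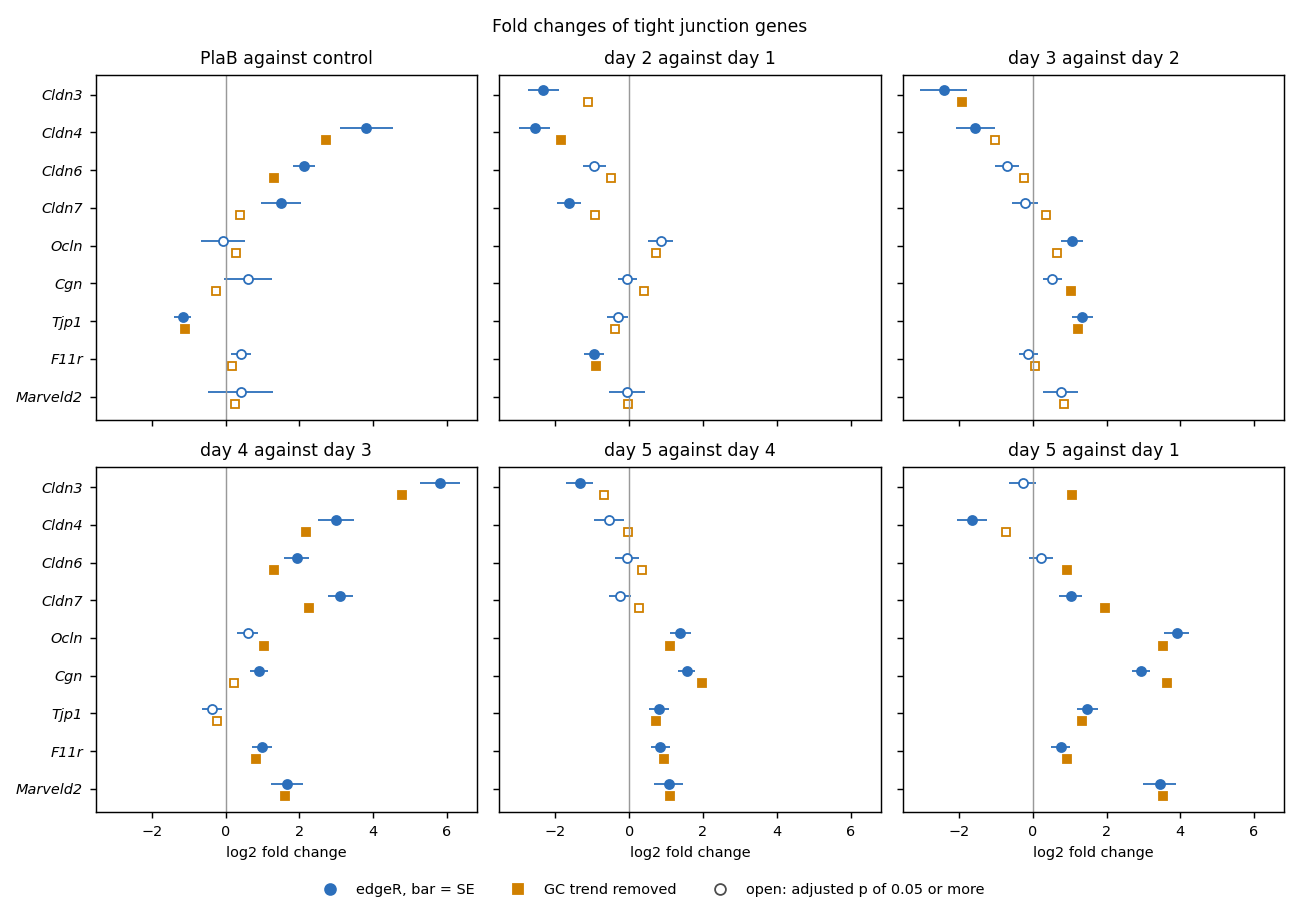
Log2 fold changes of the 9 genes in 6 comparisons, as blue circles with bars of 1 SE (edgeR) and as orange squares after removal of the GC trend, with filled symbols for an adjusted p under 0.05. Cldn3 between days 3 and 4 has the largest value (5.81, and 4.78 after GC correction), and the squares of Cldn3, Cldn4, Cldn6 and Cldn7 lie right of the circles between days 1 and 5.

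Blastoids of day 1 were also set against the PlaB-treated 2D cells. The culture form, the time and the table cannot be told apart in this comparison. By edgeR 3 of 9 genes were higher on day 1 and none lower, beside 21.9% higher and 17.0% lower of 16304 genes tested, and the median log2 fold change was 0.75 over the members and 0.14 over all genes. None of the 9 was lower at an unadjusted p under 0.05, and DESeq2 called none lower. Cldn3 was higher by 4.55 ± 0.80 (adjusted p = 9.33e-05), with 186 counts over the day 1 libraries and 2 over the PlaB libraries, a ratio of 23.3 (95% counting interval 6.35 to 194). Cldn7 was higher by 1.73 ± 0.41 (adjusted p = 0.00178) and F11r by 1.33 ± 0.30 (0.00103), and these 3 calls held in every alternative. Cldn4 missed the threshold (1.14 ± 0.47, adjusted p = 0.0563, edgeR) and passed it by total-count scaling (0.0182), without a filter (0.0294) and without replicate 3 of day 1 (0.00803). The fold change of Cldn6 was 0.07 ± 0.37 (0.899), with a sign that depended on the setting. Fibroblast markers were lower on day 1 (18 of 19 tested), and their part was not tested.

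Scaling matters for the balance of calls. By total counts only, the median log2 fold change of all genes was -0.35 between days 1 and 5, -0.23 between days 4 and 5, -0.17 between days 1 and 2 and 0.43 for day 1 against 2D PlaB. The share of all calls that were higher went from 50.1% to 33.8%, from 49.4% to 31.2%, from 24.2% to 10.2% and from 56.3% to 71.1% in these comparisons, and from 55.9% to 68.9% between days 3 and 4. After GC correction the share between days 1 and 2 was 47.6%.

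Other genes of the junctions were taken from lists by role. Their calls rest on the reported fit alone, without the alternative settings run for the 9 members. Of 19 other claudins only 2 to 4 were abundant enough to test in any comparison. Cldn12, which is widely expressed, was lower after PlaB (-3.36 ± 0.41, adjusted p = 1.47e-08, edgeR; 27.9 ± 1.65 against 2.73 ± 1.63 CPM, SD, n = 2 each) and was higher on day 1 than in the PlaB cells (2.12 ± 0.42, 0.000368), where Cldnd1 was lower (-0.99 ± 0.23, 0.00164). Between days 1 and 5 none of 3 tested claudins was called by edgeR, and the median over them was -0.02. Of 8 other membrane proteins of the junction 2 were higher and 2 lower between days 1 and 5, shares close to those over all genes (25.5% each way). The virus receptor gene Cxadr (1.68 ± 0.33) and Marveld3 (1.59 ± 0.58) were higher, and Marveld1 (-2.86 ± 0.70) and Jam2 (-0.83 ± 0.26) lower. After PlaB 1 of 5 was lower (25.8% of all genes), Ildr1 (-2.11 ± 0.52), the gene of a tricellular junction protein. On day 1 against 2D PlaB 3 of 9 were higher (Ildr1, Esam and Lsr), beside 21.9% of all genes.

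Plaque proteins were tested in larger numbers. Between days 1 and 5, 7 of 16 were higher and 3 lower, beside 25.5% each way of all genes. The angiomotin genes Amotl2 (3.14 ± 0.31, adjusted p = 1.9e-07, edgeR) and Amot (3.89 ± 0.43, 6.38e-07), which link junctions to the Hippo pathway, came first by adjusted p. The scaffold genes Magi3 (2.15 ± 0.29) and Patj (1.68 ± 0.32) followed. After PlaB 3 of 13 were higher and 4 lower, close to the shares over all genes (25.9% and 25.8%). Here Amotl2 (1.76 ± 0.14) and Rab13 (1.62 ± 0.38) were higher and Magi3 (-1.92 ± 0.36) lower. On day 1 against 2D PlaB 6 of 16 were higher and 2 lower, beside 21.9% higher and 17.0% lower of all genes. Among them Arhgef18 (3.29 ± 0.42) was higher and Amotl2 (-4.44 ± 0.31) lower. The medians were 0.49, -0.54 and 0.54 in the 3 comparisons.

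The products of adherens junction genes hold the cells together below the tight junction. Between days 1 and 5 these genes were higher for 5 of 10 and lower for 1 (median 0.98), beside 25.5% each way of all genes. Cdh1, the gene of E-cadherin, rose by 2.65 ± 0.33 (adjusted p = 2.47e-06, edgeR), Ctnnd1 by 2.10 ± 0.28, Afdn by 1.46 ± 0.17 and Ctnna1 by 1.26 ± 0.21. After PlaB 4 of 8 were lower and none higher, beside 25.8% lower and 25.9% higher of all genes. The 4 were Nectin3 (-1.24 ± 0.20), Cdh1 (-0.67 ± 0.18), Afdn (-0.60 ± 0.17) and Ctnnd1 (-0.79 ± 0.24), in the libraries in which 3 claudins were higher. On day 1 against 2D PlaB 3 of 10 were higher (Jup, Nectin2 and Ctnnb1) and Ctnnd1 lower, beside 21.9% higher and 17.0% lower of all genes.

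Of 10 regulators of epithelial junctions 3 were higher and 3 lower after PlaB, close to the shares over all genes (25.9% and 25.8%). The protease inhibitor gene Spint2 (1.69 ± 0.18) and Epcam (0.69 ± 0.15), whose product binds Cldn7, were higher, and the transcription factor genes Klf5 (-1.70 ± 0.17) and Tfap2c (-1.91 ± 0.39) lower. Between days 1 and 5, 5 of 13 were higher and 1 lower, beside 25.5% each way of all genes. Spint1 (2.13 ± 0.29), Tfap2c (1.73 ± 0.29), Klf5 (1.27 ± 0.30) and Grhl1 (1.74 ± 0.42) led. On day 1 against 2D PlaB 7 of 13 were higher and none lower by edgeR, beside 21.9% higher and 17.0% lower of all genes. The epithelial factor genes Elf3 (5.12 ± 0.57, edgeR adjusted p = 2.12e-07, with 22.3 ± 9.97 against 0.611 ± 0.253 CPM, SD, n = 3 and 2) and Grhl2 (2.77 ± 0.39, 5.3e-06) came first. Repressors of epithelial genes were lower between days 1 and 5 for all 5 tested, beside 25.5% lower of all genes. Snai2 fell by 5.01 ± 0.32 (adjusted p = 7.86e-09, edgeR), from 39.6 ± 7.72 to 1.17 ± 0.192 CPM (SD, n = 3 each), Zeb2 by 3.05 ± 0.43, Twist1 by 3.49 ± 0.68 and Zeb1 by 1.83 ± 0.36. Their decline ran with that of the fibroblast markers, 17 of 19 of which were lower, and fibroblasts express these repressors, and the part of the fibroblasts in it was not tested. After PlaB Zeb1 (-0.98 ± 0.23) and Zeb2 (-0.84 ± 0.21) were lower, 2 of 5, beside 25.8% lower of all genes. Fibroblast markers were higher in the same comparison. In blastoids Snai2 averaged 39.6 CPM on day 1, when the claudins were higher. It averaged 24.8 CPM on day 2 and 7.60 CPM on day 3, when the claudins were low. On day 4, when the claudins were higher again, Snai2 averaged 1.80 CPM. The part of the repressors in the junction genes was not tested.

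Over the 19 libraries the profiles of the members were compared in pairs (Pearson correlation of log2 CPM, a description over libraries that share group, depth and GC tendency). Among the members, Cldn3 and Cldn7 were most alike (0.916), followed by Cldn7 and F11r (0.904), Cgn and Marveld2 (0.867) and Ocln and Cgn (0.862). F11r was also like Cgn (0.825) and Marveld2 (0.806). The neighbours Cldn3 and Cldn4 had 0.72, and Cldn4 and Tjp1 were the least alike (-0.338). Among 8973 tested genes with a mean of at least 10 CPM in 1 group or more (numbered gene models left out), those most like Cldn3 were Agpat4 (0.958), Mgat4b (0.953) and Crb3 (0.938), the last a gene of the apical Crumbs complex. Limk2, which encodes a kinase of the actin cytoskeleton, was the closest to both Cldn7 (0.944) and F11r (0.93). Arhgap8 (0.944) and Cmtm8 (0.923) came next for Cldn7, and the kinase gene Mark3 (0.918) and Ssbp3 (0.915) for F11r. Cldn4 was closest to Trpc4ap (0.951), Nucb1 (0.946) and Galk1 (0.945), and Cldn6 to the glycolytic genes Gpi1 (0.949) and Tpi1 (0.946) and to Ifi30 (0.939).

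Ocln was closest to Msl1 (0.961), Bend4 (0.951) and Phlpp2 (0.946), and Tjp1 to the chromatin remodelling gene Arid1b (0.944), Retreg1 (0.941) and Klhl15 (0.939). Cgn was closest to Dpf3 (0.934), Pramef12 (0.918), a gene of a multi-copy family whose counts are uncertain, and Pard6b (0.917), which encodes a subunit of the apical PAR complex. Genes with a profile like that of Marveld2 included Slc38a4 (0.915), an amino acid transporter gene, and Atp6v1h (0.908).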

How the data were processed

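Per the labels, polyadenylated RNA of 19 libraries was prepared with Smart-seq2. The values are raw counts of reads per gene symbol that the authors deposited in 2 tables. Per the submitters' processing notes, the tools were STAR 2.7.10b and HTSeq 0.13.5 and the build mm10. Neither the annotation release nor the strand setting of the counting is given in the sources used here. In the labels each table's name stands on the samples of the other, so columns were matched to samples by title.

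The members and all gene lists were chosen with earlier results of these data known, and the promoter motifs too. All 9 members are named in every comparison. From each list the counts by direction and up to 4 genes with the smallest adjusted p are given for 3 comparisons (PlaB against control, day 5 against day 1, day 1 against 2D PlaB), and for each member the 3 genes of most similar profile. A few results that these rules name are not reported here. Further genes (Cdx2, Krt8, Krt18, Hand1, Tead4, Pou5f1, Tagln) were named after their values were seen.

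Counts were kept by filterByExpr (minimum count 10, total 15) and tested with edgeR 4.0.16 (R 4.3.3; TMM, robust quasi-likelihood test) in 3 fits, the 2D libraries (11183 genes, biological coefficient of variation 0.127), the blastoids (15121, 0.258) and all libraries (16304, 0.25). P-values were adjusted by Benjamini-Hochberg over all genes of a fit, with 0.05 as the threshold, and SE is the log2 fold change divided by the root of its F statistic. Few counts limit precision, and counting intervals (95%, exact) cover counting error only. Gene models, GC content and exon lengths come from GENCODE M21 (GRCm38), in which 53663 symbols matched 1 gene. The GC trend was removed with a loess curve (span 0.5) of each library's deviation on GC content, as offsets. Other settings were DESeq2 1.42.0, RLE and total-count scaling, other filters, a replicate block, fits of the compared libraries alone and leaving out each library. The test was checked on simulated counts.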

Additional observations from a re-analysis of the deposited data

How the results depend on the processing

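Of 62 member values 35 were called, and none of these changed sign under any alternative. In 20 of them the call held in every alternative, and the others are given with the results. The number of members called moved by more than 1.5 times in few settings. By total-count scaling it was 5 against 3 for day 1 against 2D PlaB and 3 against 6 for day 5 against day 4. With the GC trend removed it was 2 against 4 for day 2 against day 1. In the fit of the compared libraries alone it was 2 of 8 tested against 4 of 9 for day 3 against day 2. There a call also ended because the filter on low counts left the gene out. Leaving out 1 library gave 2 to 5 members for day 3 against day 2 and 2 to 5 for day 5 against day 4. The cause of the other moves was not tested.

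The values that changed sign were not called in the reported fit. With the GC trend removed they were 0.39 for Cgn, day 2 against day 1, -0.25 for Cgn after PlaB, 1.08 for Cldn3, day 5 against day 1, -0.38 for Cldn6, day 1 against 2D PlaB, and 0.34 for Cldn6, day 5 against day 4. They were 0.37 for Cldn7, day 3 against day 2, 0.27 for Cldn7, day 5 against day 4, 0.0526 for F11r, day 3 against day 2, and 0.29 for Ocln after PlaB. Cldn6, day 1 against 2D PlaB, was -0.0789 with at least 10 counts in every library and -0.0815 in the fit of the compared libraries alone, and Cldn6, day 5 against day 1, was -0.13 by total-count scaling. Leaving out 1 library gave ranges of -0.0664 to 1.64 for Cgn and -0.26 to 0.55 for Cldn6 (day 1 against 2D PlaB), -0.22 to 0.0186 for Cgn and -0.42 to 0.30 for Marveld2 (day 2 against day 1), and -0.46 to 1.58 for Cgn, -0.53 to 1.01 for Marveld2 and -0.27 to 0.10 for Ocln (PlaB). The ranges were -0.59 to 0.0129 for Cldn3 and -0.15 to 0.51 for Cldn6 (day 5 against day 1), -0.20 to 0.11 for Cldn6 (day 5 against day 4) and -0.45 to 0.0663 for F11r (day 3 against day 2). Where a 2D library was left out, the lone library was assumed to vary like the other groups.

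Replicates share only a number (correlations of same-numbered blastoid libraries -0.25 to 0.171, median -0.0376; 2D -0.00577), so they were not paired. With a replicate block, Marveld2 (1.07, adjusted p = 0.0705, edgeR) and Tjp1 (0.78, 0.06) lost their calls for day 5 against day 4, 4 members in place of 6, and the other comparisons kept their number of members called.

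Of all genes, 1052 were called for day 2 against day 1, and 555 with the GC trend removed, 2036 in the fit of these days alone and 426 to 1490 without 1 library. For day 3 against day 2 the numbers were 3866, 2479 in that fit and 1883 to 4669 without 1 library. For day 4 against day 3 they were 4224, 2811 with the GC trend removed, 2697 in that fit and 2549 to 4591. They ranged without 1 library from 2876 to 4367 for day 5 against day 4 (4321 with all) and from 3811 to 5966 for day 1 against 2D PlaB (6337 with all). Depth limits Cldn3 in 2D and on day 3, and Cldn4 and Marveld2 in control.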

Other observations

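Between days 3 and 4, the step at which 7 of the 9 tight junction genes were higher, other lists moved as well (genes named here were chosen after their values were seen). Over all tested genes 15.6% were higher and 12.3% lower at this step. Calls of the listed genes rest on the reported fit alone, and whether they hold after GC correction was not tested. Of 13 tested regulators of epithelial junctions 8 were higher and none lower by edgeR, among them Elf3 (log2 fold change 2.14 ± 0.29, SE, adjusted p = 3.38e-05) and the genes of the membrane protease prostasin, Prss8 (2.88 ± 0.41, 5.84e-05), and of its inhibitors Spint1 (2.10 ± 0.29) and Spint2 (1.81 ± 0.26). Klf5 (-0.70 ± 0.29, adjusted p = 0.0801) and Tfap2a (-1.03 ± 0.47, 0.104) were lower only at an unadjusted p under 0.05. Of 16 plaque proteins 6 were higher and 1 lower. Tjp3, the gene of ZO-3, had the smallest adjusted p among these (4.23 ± 0.57, adjusted p = 2.84e-05, edgeR). Of 5 repressors of epithelial genes 4 were lower and none higher, with Snai2 at -2.08 ± 0.29 and Zeb2 at -2.83 ± 0.43. Fibroblast markers fell in the same step (13 of 19 lower, none higher), from a sum of 218 to 514 CPM on day 3 to 25.5 to 131 CPM on day 4, and their part in the repressors was not tested.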
